A study of Saccharomyces pastorianus with 12 samples.

Results

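SpIB2 is a lager yeast, a strain of the hybrid species Saccharomyces pastorianus, and its messenger RNA was compared between day 5 and day 2 of a beer fermentation. The comparison took every SpIB2 library of the series, 6 of 12: 3 from day 5 and 3 from day 2, and the remaining 6 come from a second lager strain, SpIB1. Per the labels' protocols, the yeasts grew in brewing wort at 16 °C over a fermentation of 5 days. Hot phenol was used for extraction, samples needed an RNA integrity number above 8, and sequencing libraries were polyA-selected. The title of the series names MAL gene expression and the transport of maltose and maltotriose as its question. Whether the 3 replicates of a day came from separate fermentation vessels is not in the labels, so p-values measure the spread between these libraries, which may be technical. The reference for each SpIB2 copy on day 5 was the same copy on day 2, and 10545 of the 11312 gene copies in the table were tested. A gene copy is 1 row of the table, such as HXT5_2. Because the yeast is a hybrid, most gene symbols have several rows, and the files do not say which parent species a row comes from.

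Brewer's wort holds glucose, fructose, maltose and maltotriose, and lager yeast takes up glucose first and the maltose sugars afterwards. As sugar and nitrogen run out, Saccharomyces cells stop dividing and enter a stationary state. In Saccharomyces cerevisiae this state is known for transcripts of stress proteins, reserve carbohydrates, respiration, gluconeogenesis and autophagy, and for reduced transcripts of ribosomal proteins. Glucose keeps the genes for maltose use and for respiration repressed.

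The libraries held 5180189 to 6578123 reads each. Across the tested copies, log2 values of CPM, the reads of a copy scaled to a common library size, correlated at a Pearson r of 0.969 between day 5 replicates 2 and 3, while day 5 replicate 1 stood at 0.919 and 0.911 with them. Day 2 replicates 1 and 2 correlated at 0.948, and day 2 replicate 3 stood at 0.889 and 0.899 with them. These 2 libraries, day 5 replicate 1 and day 2 replicate 3, stood apart, and the counts below are also given without them. Day 5 replicate 1 had a scaling factor (TMM, a trimmed mean of log ratios) of 0.605, against 0.977 to 1.25 in the other 5. Replicates of a day differed by more than sampling noise in every pair (chi-square over its degrees of freedom of 21.9 to 115). As a check of the strain labels, 69 copies had 0 reads in every SpIB1 library and at least 100 in every SpIB2 library. In RNA from whole cultures, fewer cells with a transcript and less transcript per cell cannot be told apart.

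Of the 10545 copies, edgeR's quasi-likelihood test called 1495 higher on day 5 (14.2%) and 1101 lower (10.4%) at a Benjamini-Hochberg adjusted p under 0.05. Of these calls, 1476 of the higher and 1070 of the lower copies had changed at least 2-fold. Without both libraries that stood apart, 1773 were higher (16.7%) and 1542 lower (14.6%), and 2339 of the 2596 called copies passed in the same direction. That fit keeps the most alike libraries of each day, which by itself narrows the spread and can add calls. Its larger counts are therefore not an independent check. The counts depended on single libraries. Leaving out day 2 replicate 1 gave 759 higher and 529 lower, and leaving out day 2 replicate 2 gave 935 and 677. The lower copies also numbered 671 without day 2 replicate 3 and 536 without day 5 replicate 3. In all, 960 copies passed in each of the 6 fits that left out 1 library, and the copies named below as having risen or fallen are among these unless an exception is stated. The median log2 change of all copies was -0.08 with TMM and -0.54 with plain library totals, which gave 745 higher and 1549 lower, 32.5% of the calls being higher in place of 57.6%. Changes are therefore relative to the TMM scale. All changes are log2 of day 5 over day 2, and all levels are TMM-scaled CPM, which depend on a gene's length and are not compared between genes. Shares of reads, in percent, are of the plain read totals of the tested copies, without TMM scaling.

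The copies named first are those with the largest changes among called copies with a gene symbol, a mean of at least 10 CPM on the higher day and no overlap between the days. Rows with only a locus tag made up 261 of the higher and 129 of the lower calls and are not described. The rises were led by genes known from stationary phase. HXT5_2, a hexose transporter of slow or arrested growth, stood at 3500.0, 1099 and 678 CPM on day 5, against 4.46, 7.93 and 3.94 CPM on day 2 (log2 change 8.33 ± 0.87 SE, edgeR adjusted p = 0.00085). SPG4_1, a gene required for survival in stationary phase, stood at 1020.0, 1568 and 1125 CPM on day 5, against 8.32, 3.44 and 5.16 CPM on day 2 (log2 change 7.77 ± 0.66 SE, edgeR adjusted p = 0.000598). HSP30, a plasma membrane heat shock protein that restrains the proton pump Pma1, stood at 8711, 4141 and 2495 CPM on day 5, against 26.5, 69.9 and 50.3 CPM on day 2 (log2 change 6.71 ± 0.77 SE, edgeR adjusted p = 0.00085). In all 3, every day 5 library lay far above every day 2 library. Day 5 replicate 1 was the highest for HXT5_2 and HSP30, and without it their changes were 7.31 and 6.05.

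Further stationary phase genes moved the same way. SPG5_2, a proteasome regulator of stationary phase, stood at 4391, 1933 and 1755 CPM on day 5, against 24.8, 52.8 and 36.1 CPM on day 2 (log2 change 6.15 ± 0.68 SE, edgeR adjusted p = 0.00085). SPG1_1 stood at 1931, 1793 and 1384 CPM on day 5, against 38.8, 30.2 and 5.43 CPM on day 2 and SPG1_2 at 2262, 2917 and 1924 CPM on day 5, against 93.3, 78.1 and 13.6 CPM on day 2, with changes of 6.10 ± 0.78 and 5.26 ± 0.77 (edgeR adjusted p = 0.00113 and 0.00191). Both SPG1 copies were lowest in day 2 replicate 3, and neither overlapped between the days. Without both libraries that stood apart, the changes of SPG5_2 and SPG1_1 were 5.52 and 5.46. SPG4_2 was uneven: it stood at 1799, 549 and 952 CPM on day 5, against 2.97, 1.65 and 61.1 CPM on day 2, where replicate 3 was far above the other 2. Its change was 5.65 ± 1.24 (edgeR adjusted p = 0.00932), 8.90 without day 2 replicate 3, and 5.07 without day 5 replicate 1, where its call ended (edgeR adjusted p = 0.0963).

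The other copies among the 15 largest rises had varied roles. BOP2_2 stood at 3562, 1445 and 995 CPM on day 5, against 8.62, 20.5 and 31 CPM on day 2 (log2 change 6.64 ± 0.80 SE, edgeR adjusted p = 0.000911), with a change of 5.90 without day 5 replicate 1. IME2_2, a kinase of the meiotic programme, stood at 323, 189 and 138 CPM on day 5, against 3.72, 7.18 and 7.47 CPM on day 2 (log2 change 5.14 ± 0.53 SE, edgeR adjusted p = 0.00085). IRA2_1, which restrains the growth-promoting GTPase Ras, stood at 853, 330.4 and 219 CPM on day 5, against 13.8, 15.7 and 11.7 CPM on day 2 (log2 change 5.09 ± 0.63 SE, edgeR adjusted p = 0.00103). None of these overlapped between the days. MFG1_2, a regulator of filamentous growth, rose by 5.12 ± 0.54 and RCN1_2, a calcineurin regulator, by 4.93 ± 0.56 (edgeR adjusted p = 0.00085 for both). SLD2_2, of DNA replication initiation, rose by 4.90 ± 0.74 and DSF1_1, a putative mannitol dehydrogenase, by 4.87 ± 0.85 (edgeR adjusted p = 0.00218 and 0.00402). The changes of IRA2_1, SLD2_2 and DSF1_1 without day 5 replicate 1 were 4.27, 3.75 and 3.77, and that of DSF1_1 was 5.87 without day 2 replicate 3. GIT1_2, a permease for glycerophosphoinositol, had 188 reads over the day 5 libraries and 5 over those of day 2, at 20.1, 6.14 and 16.8 CPM on day 5, against 0.149, 0 and 0.543 CPM on day 2 (edgeR adjusted p = 0.00103).

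The 15 largest falls included copies of nitrogen use, sterol synthesis and the plasma membrane proton pump. UGA1_2, the transaminase that starts the breakdown of GABA, stood at 33.9, 35.7 and 44.4 CPM on day 5, against 884, 1065 and 999.7 CPM on day 2 (log2 change -4.69 ± 0.51 SE, edgeR adjusted p = 0.00085). The GABA permease copies UGA4_2 and UGA4_1 fell as well, UGA4_2 to 15.5, 18 and 12.7 CPM on day 5, against 135, 167 and 450.4 CPM on day 2 (log2 change -4.02 ± 0.56 SE, edgeR adjusted p = 0.0016). UGA4_1 changed by -3.74 ± 0.48 (edgeR adjusted p = 0.00113), and by -3.08 without both libraries that stood apart. In UGA1_2 the 3 libraries of each day lay close together and the days were far apart, while UGA4_2 was highest in day 2 replicate 3, without which its change was -3.29. PMA1_1, the plasma membrane proton pump itself, stood at 122, 96.3 and 70.1 CPM on day 5, against 825, 973 and 684 CPM on day 2 (log2 change -3.11 ± 0.49 SE, edgeR adjusted p = 0.00266).

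DAL7_1, a malate synthase of the allantoin pathway, stood at 53.5, 259.8 and 116 CPM on day 5, against 1269, 689.8 and 2076 CPM on day 2 (log2 change -3.23 ± 0.68 SE, edgeR adjusted p = 0.00815), with a change of -3.98 without day 5 replicate 2 and -2.45 without both libraries that stood apart. The acetyl-CoA synthetase copy ACS2_1 stood at 79.1, 133 and 88.5 CPM on day 5, against 542, 802 and 1369.7 CPM on day 2 (log2 change -3.17 ± 0.54 SE, edgeR adjusted p = 0.00377). Neither overlapped between the days. MSC7_1 and MSC7_2, related to aldehyde dehydrogenases, changed by -3.56 ± 0.61 and -3.11 ± 0.54 (edgeR adjusted p = 0.00383 and 0.00385). The aldehyde reductase ARI1_1 changed by -3.02 ± 0.40 and the alcohol acetyltransferase ATF2_1, which forms acetate esters, by -3.10 ± 0.47 (edgeR adjusted p = 0.00147 and 0.00218). Without both libraries that stood apart, MSC7_1, MSC7_2 and ATF2_1 changed by -2.80, -2.51 and -2.37. TPA1_1 changed by -3.32 ± 0.65 (edgeR adjusted p = 0.00577), by -2.41 without day 2 replicate 3 and by -3.95 without day 5 replicate 2. MIP6_2, with a fitted change of -3.24 ± 0.92 (edgeR adjusted p = 0.0265), stood at 0.863, 4.03 and 0.779 CPM on day 5, against 5.5, 4.34 and 46.3 CPM on day 2. It rested on day 2 replicate 3: without it the change was -1.32 and the call ended (edgeR adjusted p = 0.161). The MIP6_2 call also ended without day 5 replicate 1 or 3 (edgeR adjusted p = 0.217 and 0.0982), and without day 5 replicate 2 the change was -4.49.

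**Figure D1:**
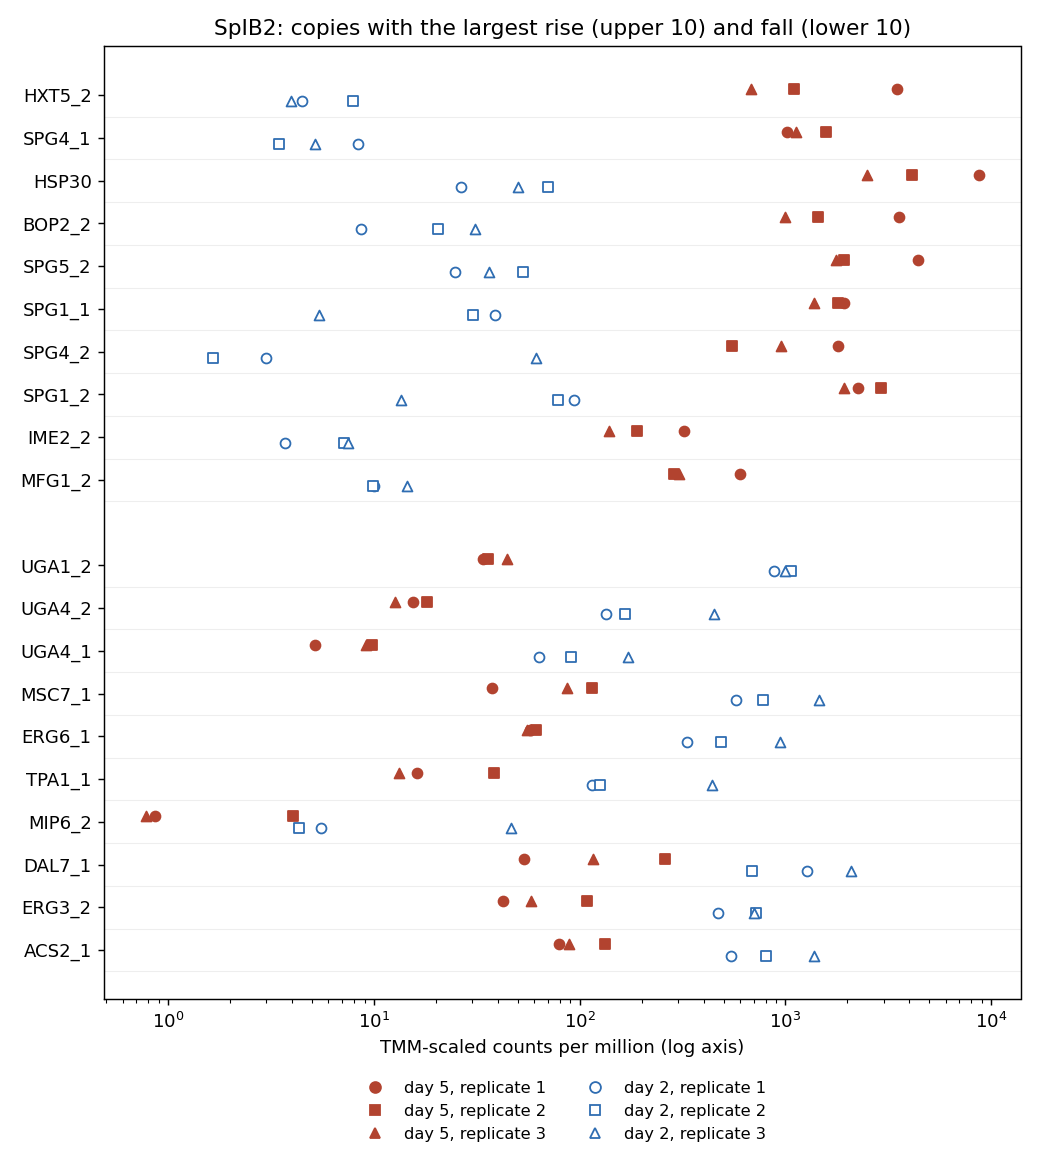
Levels in each SpIB2 library of the 10 copies that rose most and the 10 that fell most, in TMM-scaled CPM on a log axis. Filled symbols are day 5, open symbols day 2, and the symbol shape is the replicate. GIT1_2 is left out because 1 library had 0 reads. The days do not overlap, since the copies were chosen so, but in MIP6_2 the highest day 5 library, at 4.03 CPM, lies next to the lowest day 2 library, at 4.34 CPM.

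Gene groups were then followed in 31 lists of genes with a shared role, and their counts are to be read against the 14.2% higher and 10.4% lower over all tested copies and against the median of -0.08. The general stress response list held genes that many stresses switch on together, and also stationary phase genes such as SPG4, SPG5 and SPG1. In this list 45 of 81 copies rose and 1 fell, with a median change of 1.83. The list took 7.28%, 7.92% and 7.64% of the reads in the day 5 libraries, against 2.42%, 2.83% and 1.89% in the day 2 libraries, with no overlap. Without both libraries that stood apart, 48 rose and 6 fell. Beside SPG4_1, HSP30, SPG5_2 and SPG1_1, which lead the list, STF2_2, a hydrophilin, was among the 10 copies with most reads on day 5. It stood at 6471, 7718 and 9869 CPM on day 5, against 637, 421 and 295 CPM on day 2 (log2 change 4.15 ± 0.59 SE, edgeR adjusted p = 0.00174). HOR7_1, an osmotic stress gene, stood at 6745, 11314 and 8595 CPM on day 5, against 2569.6, 1414 and 2129 CPM on day 2 (log2 change 2.12 ± 0.54 SE, edgeR adjusted p = 0.0166). The days did not overlap in either copy, but the HOR7_1 call ended without day 2 replicate 1, day 2 replicate 2 or day 5 replicate 2 (edgeR adjusted p = 0.0547, 0.0798 and 0.0519). The only copy of the list that fell was the cytosolic catalase CTT1_1, at 57.5, 69.8 and 58.3 CPM on day 5, against 114, 260.5 and 675 CPM on day 2 (log2 change -2.50 ± 0.61 SE, edgeR adjusted p = 0.0142), and without day 2 replicate 3, its highest library, the change was -1.59. Summed over its copies, CTT1 stood at 1673, 486 and 372 CPM on day 5, against 441, 935 and 2106 CPM on day 2. The days overlapped in this sum, and it did not pass (log2 change -0.46 ± 0.70 SE, edgeR adjusted p = 0.64).

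In trehalose and glycogen, the reserve carbohydrates, 20 of 46 copies rose and 1 fell, with a median of 1.19. The acid trehalase ATH1_2 stood at 1219, 494 and 336 CPM on day 5, against 59.6, 95.7 and 26.9 CPM on day 2 (log2 change 3.49 ± 0.67 SE, edgeR adjusted p = 0.00533). The glycogen branching enzyme GLC3_1 stood at 5131, 2757 and 1965 CPM on day 5, against 544, 662 and 121 CPM on day 2 (log2 change 2.89 ± 0.70 SE, edgeR adjusted p = 0.014). Neither copy overlapped between the days, and day 2 replicate 3 was the lowest library of both. GIP2_2 and PIG2_1, which bind the phosphatase that acts on glycogen synthase, rose by 3.18 ± 0.64 and 3.06 ± 0.67 (edgeR adjusted p = 0.00663 and 0.00916). The changes of ATH1_2, GIP2_2 and PIG2_1 without day 5 replicate 1 were 2.73, 2.33 and 2.45, and GLC3_1 changed by 1.91 without both libraries that stood apart. PGM1_2, a phosphoglucomutase, was the copy that fell (log2 change -1.38 ± 0.34 SE, edgeR adjusted p = 0.0159), and its call ended without day 2 replicate 2 or day 5 replicate 3 (edgeR adjusted p = 0.0589 and 0.0552). Higher copies numbered 7 without day 2 replicate 1.

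**Figure D2:**
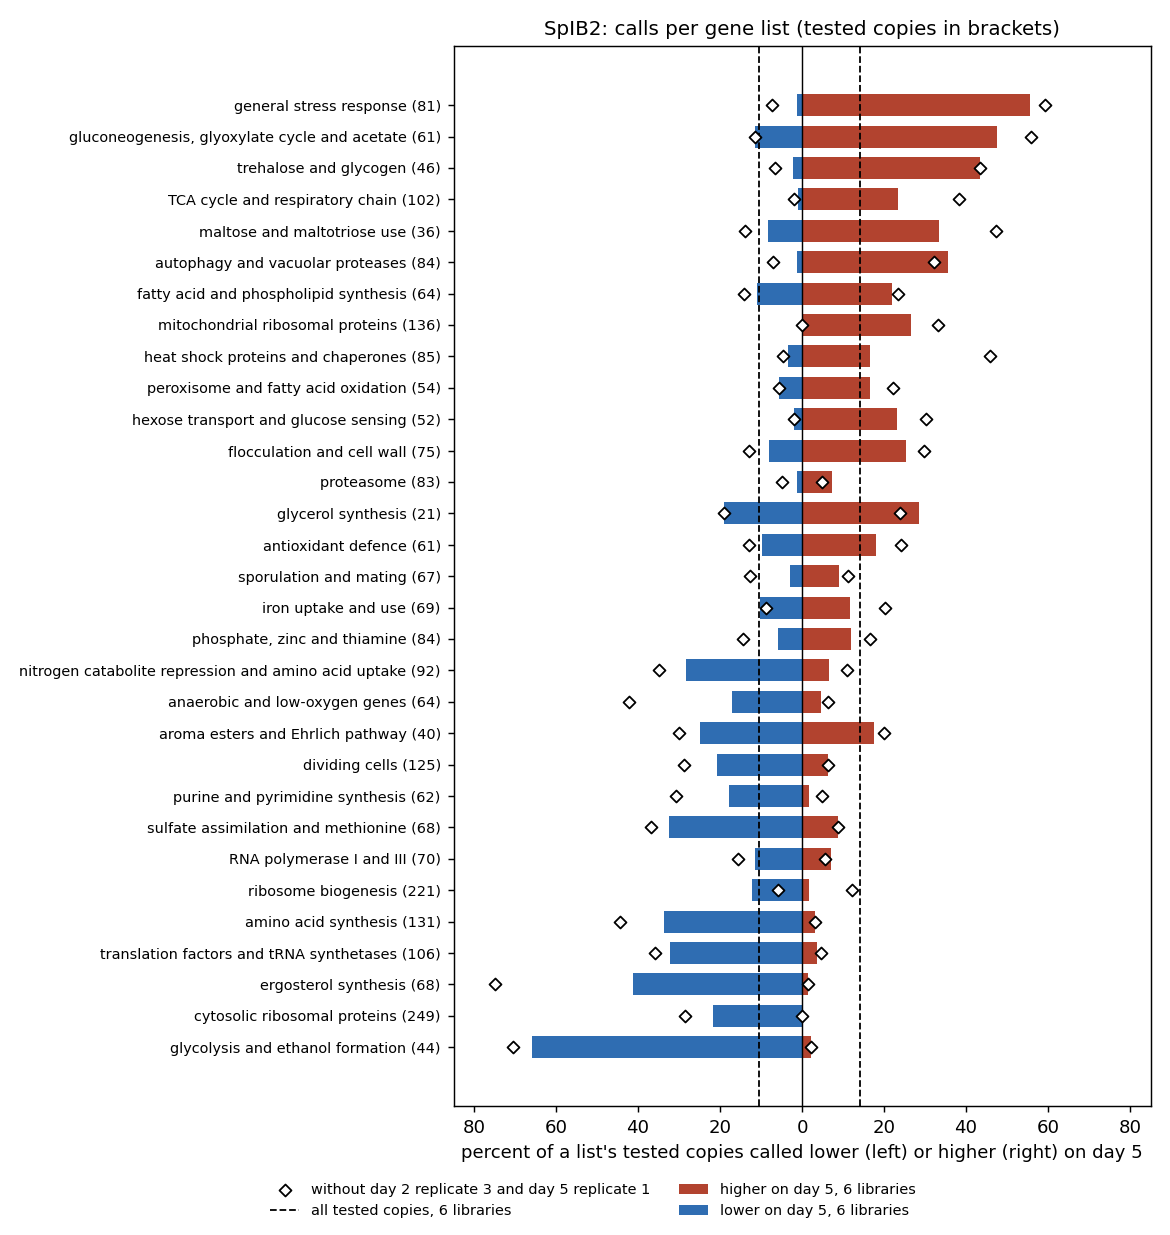
Share of each list's tested copies called lower (left) or higher (right) on day 5 at an adjusted p under 0.05, in percent, with the number of tested copies in brackets and the lists ordered by median change. Bars are the fit of all 6 libraries, diamonds the fit without day 5 replicate 1 and day 2 replicate 3, and dashed lines mark the 14.2% and 10.4% over all tested copies. The general stress response has the highest share called higher, and glycolysis and ethanol formation the highest share called lower in the bars, while ergosterol synthesis passes it in the diamonds.

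Sugar uptake was followed from the hexose transporters to ethanol. Of 52 copies for hexose transport and glucose sensing, 12 rose and 1 fell, with a median of 0.47 (-0.02 with library totals). Without day 2 replicate 1, 8 rose and 3 fell, and without day 2 replicate 2, 8 rose and 4 fell. HXT6, a glucose transporter of high affinity, stood at 13933, 4286 and 2743 CPM on day 5, against 262, 501 and 100.1 CPM on day 2 (log2 change 4.60 ± 0.84 SE, edgeR adjusted p = 0.00453). HXT3_2, a transporter of low affinity, stood at 5046, 2006 and 1123 CPM on day 5, against 119.9, 249 and 39 CPM on day 2 (log2 change 4.32 ± 0.82 SE, edgeR adjusted p = 0.00524). HXT13_1 stood at 631, 163 and 133 CPM on day 5, against 7.13, 7.33 and 21.6 CPM on day 2 (log2 change 4.68 ± 0.75 SE, edgeR adjusted p = 0.0028). In all 3 the highest library was day 5 replicate 1, without which the changes of HXT6, HXT3_2 and HXT13_1 were 3.57, 3.48 and 3.58. Without day 2 replicate 2 the changes of HXT6 and HXT3_2 were 5.27 and 5.10, and without day 2 replicate 3 that of HXT13_1 was 5.43. The copy that fell was STD1_1, a regulator in glucose sensing (log2 change -1.64 ± 0.38 SE, edgeR adjusted p = 0.012). Reads can be shared within this family, which leaves values of single HXT copies uncertain.

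In maltose and maltotriose use, the subject of the series, 36 of 40 copies passed the filter on low counts, 12 of them rose and 3 fell, with a median of 0.83. The summed share of reads of the list, taken without TMM scaling, was lower on day 5, without overlap. It was 0.468%, 0.659% and 0.667% in the day 5 libraries, against 1.25%, 1.28% and 0.86% in the day 2 libraries. Day 5 replicate 1 had the lowest TMM factor, 0.605, so this separation need not hold on the TMM scale. The higher copies numbered 6 and 7 without day 2 replicate 1 or 2, the lower ones 1 without day 2 replicate 1, 17 copies rose and 5 fell without both libraries that stood apart, and with library totals 5 rose and 5 fell. Among the transporters, MAL11_3, a copy of the broad alpha-glucoside carrier that also takes maltotriose, stood at 73.9, 47.2 and 54 CPM on day 5, against 3.57, 2.99 and 13.2 CPM on day 2 (log2 change 3.14 ± 0.53 SE, edgeR adjusted p = 0.00366). MAL11_1 stood at 55.5, 43 and 52.4 CPM on day 5, against 15.3, 15 and 23.8 CPM on day 2 (log2 change 1.48 ± 0.33 SE, edgeR adjusted p = 0.0102). The third copy, MAL11_2, overlapped between the days, at 31.4, 26.3 and 19.3 CPM on day 5, against 12.3, 13.8 and 19.4 CPM on day 2, and did not pass the test (log2 change 0.75 ± 0.33 SE, edgeR adjusted p = 0.109). MAL11_3 was highest on day 2 in replicate 3, without which its change was 4.15, and the MAL11_1 call ended with library totals (edgeR adjusted p = 0.0687). Summed over its copies, MAL11 rose (log2 change 1.67 ± 0.34 SE, edgeR adjusted p = 0.00839).

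The maltose permease MAL31, which carries maltose but not maltotriose in S. cerevisiae, did not move as 1 gene. Its copies with most reads, MAL31_1 and MAL31_2, stood at 1157, 797 and 644 CPM on day 5, against 959.5, 1106 and 758 CPM on day 2, and at 1308, 924 and 1311 CPM on day 5, against 989, 849 and 685 CPM on day 2. The days overlapped in both, and neither passed the test (-0.12 ± 0.47 and 0.49 ± 0.46, edgeR adjusted p = 0.864 and 0.442). The scarcer MAL31_4 rose, at 66.5, 30.3 and 27.7 CPM on day 5, against 10.8, 14.4 and 14.7 CPM on day 2 (log2 change 1.63 ± 0.39 SE, edgeR adjusted p = 0.0136), a call that ended without day 2 replicate 1 (edgeR adjusted p = 0.0547) and with library totals (edgeR adjusted p = 0.0612). The other 3 tested MAL31 copies and MPH3, another alpha-glucoside permease, did not pass, and MAL31 summed over copies did not either (log2 change 0.12 ± 0.44 SE, edgeR adjusted p = 0.852).

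The maltases, which split maltose inside the cell, were lower or did not pass. MAL32_1, the maltase copy with most reads, stood at 2586, 3045 and 2739 CPM on day 5, against 6655, 7269.6 and 4838 CPM on day 2, without overlap, but missed the threshold (log2 change -1.16 ± 0.49 SE, edgeR adjusted p = 0.0964). MAL32_2 stood at 24.5, 32.4 and 32.9 CPM on day 5, against 96.9, 86.6 and 79.2 CPM on day 2 (log2 change -1.55 ± 0.33 SE, edgeR adjusted p = 0.00876). MAL62 stood at 31.1, 45.8 and 39.7 CPM on day 5, against 116, 104 and 92.1 CPM on day 2 (log2 change -1.42 ± 0.35 SE, edgeR adjusted p = 0.0152). MAL12_1 fell by 1.15 on the log2 scale (edgeR adjusted p = 0.0275), and MAL12_2, at -0.86 ± 0.33, did not pass (edgeR adjusted p = 0.0708). The MAL62 call ended without day 2 replicate 1 (edgeR adjusted p = 0.0509), and that of MAL12_1 without day 2 replicate 1 or 2 or day 5 replicate 2 or 3 (edgeR adjusted p = 0.0824, 0.0828, 0.0509 and 0.0787). Summed over copies, MAL12 fell (log2 change -1.08 ± 0.30 SE, edgeR adjusted p = 0.0276) and MAL32 did not pass (log2 change -1.24 ± 0.46 SE, edgeR adjusted p = 0.0676).

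Called copies of the regulators and isomaltases were all higher on day 5. The MAL activator copy MAL33_3 stood at 482, 304 and 261 CPM on day 5, against 66.6, 49.5 and 81.5 CPM on day 2 (log2 change 2.40 ± 0.46 SE, edgeR adjusted p = 0.00535). The activator MAL63 stood at 43.4, 31.4 and 30.4 CPM on day 5, against 7.28, 6.58 and 8.29 CPM on day 2 (log2 change 2.24 ± 0.32 SE, edgeR adjusted p = 0.00189). The days were apart in both, and the other activator copies MAL13, MAL33_1 and MAL33_2 did not pass. ZNF1_1 and ZNF1_2, of a zinc-cluster factor of respiratory growth, rose by 1.88 ± 0.52 and 1.82 ± 0.49 (edgeR adjusted p = 0.0233 and 0.022), calls that ended without day 2 replicate 1 or 2 (edgeR adjusted p = 0.0911 and 0.0781 for ZNF1_1, 0.0866 and 0.0678 for ZNF1_2) and with library totals (edgeR adjusted p = 0.0512 and 0.0502). The isomaltases IMA2_6 and IMA2_9, which split isomaltose and related sugars, rose by 2.03 ± 0.37 and 1.95 ± 0.42 (edgeR adjusted p = 0.00451 and 0.00876). IMA1_2, IMA2_2 and IMA2_5 rose by 1.13 ± 0.36, 1.17 ± 0.34 and 1.55 ± 0.45 (edgeR adjusted p = 0.039, 0.0288 and 0.0277). These 3 calls ended without day 2 replicate 1, day 2 replicate 2 or day 5 replicate 1 (edgeR adjusted p = 0.0517 for IMA2_2 to 0.128 for IMA1_2), those of IMA1_2 and IMA2_2 also without day 5 replicate 2 (edgeR adjusted p = 0.0787 and 0.0788), that of IMA1_2 without day 2 replicate 3 (edgeR adjusted p = 0.0673), and all 3 with library totals (edgeR adjusted p = 0.129 to 0.223). Summed over copies, MAL33 (log2 change 1.52 ± 0.38 SE, edgeR adjusted p = 0.0182), IMA2 (log2 change 1.74 ± 0.38 SE, edgeR adjusted p = 0.0111) and ZNF1 (log2 change 1.77 ± 0.49 SE, edgeR adjusted p = 0.027) rose, while IMA1 (log2 change -0.31 ± 0.38 SE, edgeR adjusted p = 0.556) and IMA5 (log2 change 0.73 ± 0.30 SE, edgeR adjusted p = 0.0888) did not pass. MAL and IMA copies resemble each other, and how reads matching several copies were counted is not given in the sources used here.

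**Figure D3:**
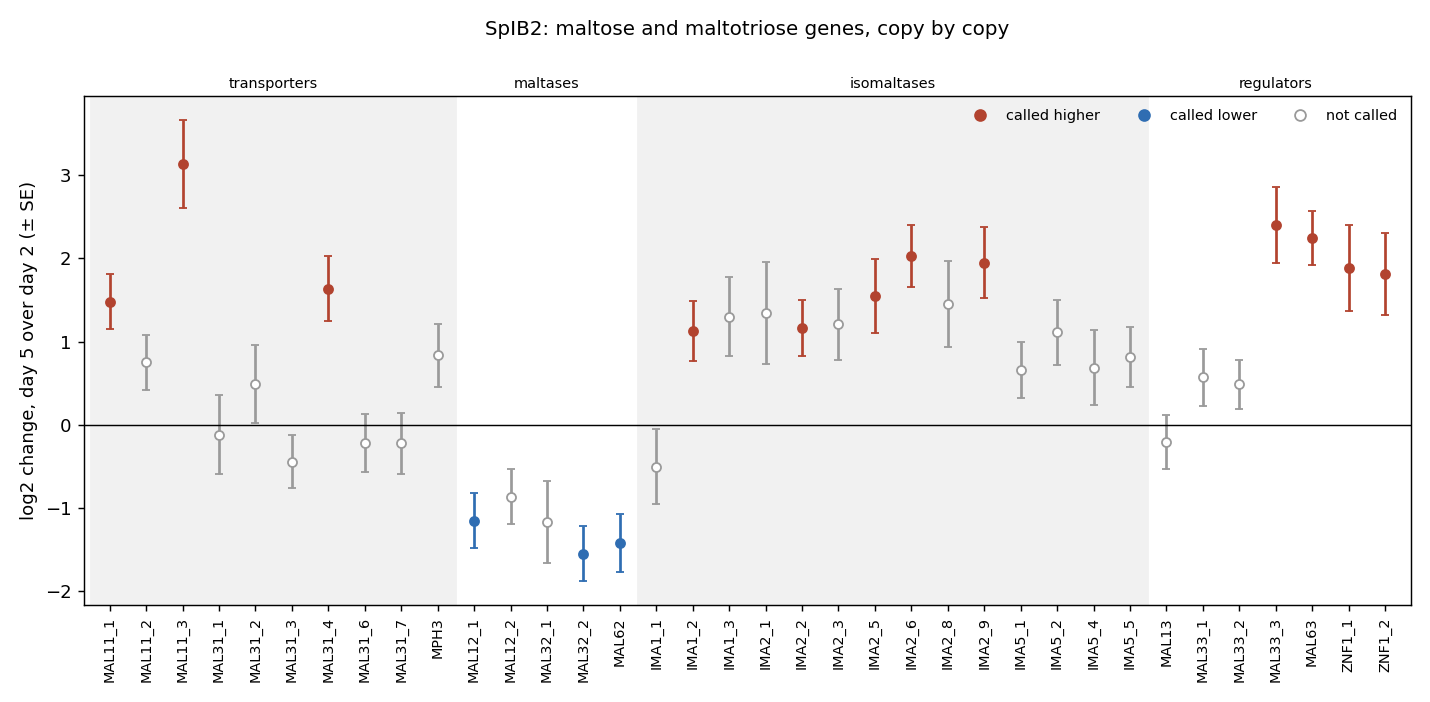
Log2 change of day 5 over day 2 with its standard error for the 36 tested copies of the maltose list, ordered by role. Red marks copies called higher, blue copies called lower and open grey copies not called. The 5 maltase copies lie below 0, whereas the called transporters, isomaltases and regulators lie above it.

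Glycolysis and ethanol formation had the largest share of copies called lower of the 31 lists: 29 of 44 fell, 1 rose and the median was -1.65. The list took 1.48%, 2.76% and 2.86% of the reads in the day 5 libraries, against 10.1%, 11.3% and 6.7% in the day 2 libraries, so every day 5 library lay below every day 2 library. The aldolase copy FBA1_1 stood at 1164, 1927 and 2177 CPM on day 5, against 10502, 10865 and 7076 CPM on day 2 (log2 change -2.43 ± 0.54 SE, edgeR adjusted p = 0.0102). The enolase ENO2 stood at 295, 341 and 375 CPM on day 5, against 2634, 2663 and 1576 CPM on day 2 (log2 change -2.77 ± 0.51 SE, edgeR adjusted p = 0.00461). PDC1_2, the pyruvate decarboxylase that leads to ethanol, stood at 285, 342 and 311 CPM on day 5, against 1398, 1696 and 2443 CPM on day 2 (log2 change -2.56 ± 0.50 SE, edgeR adjusted p = 0.00577). Every day 5 library of these 3 lay below every day 2 library. FBA1_2 changed by -2.40 ± 0.52 (edgeR adjusted p = 0.00901). The phosphoglycerate kinase PGK1 changed by -2.24 ± 0.55 (edgeR adjusted p = 0.0151), a call that ended without day 2 replicate 2 (edgeR adjusted p = 0.0521). The copy that rose was GLK1, a glucokinase, at 6592, 3353 and 2626 CPM on day 5, against 389.5, 606 and 542 CPM on day 2 (log2 change 3.03 ± 0.57 SE, edgeR adjusted p = 0.00509). ADH1_1, the alcohol dehydrogenase copy that forms ethanol, did not pass (log2 change -1.42 ± 0.51 SE, edgeR adjusted p = 0.0606). Summed over its copies, ADH1 fell (log2 change -1.55 ± 0.49 SE, edgeR adjusted p = 0.042). The 29 lower copies numbered 15, 14, 18 and 18 without day 2 replicate 1, day 2 replicate 2, day 5 replicate 2 or day 5 replicate 3, and 31 without both libraries that stood apart.

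**Figure D4:**
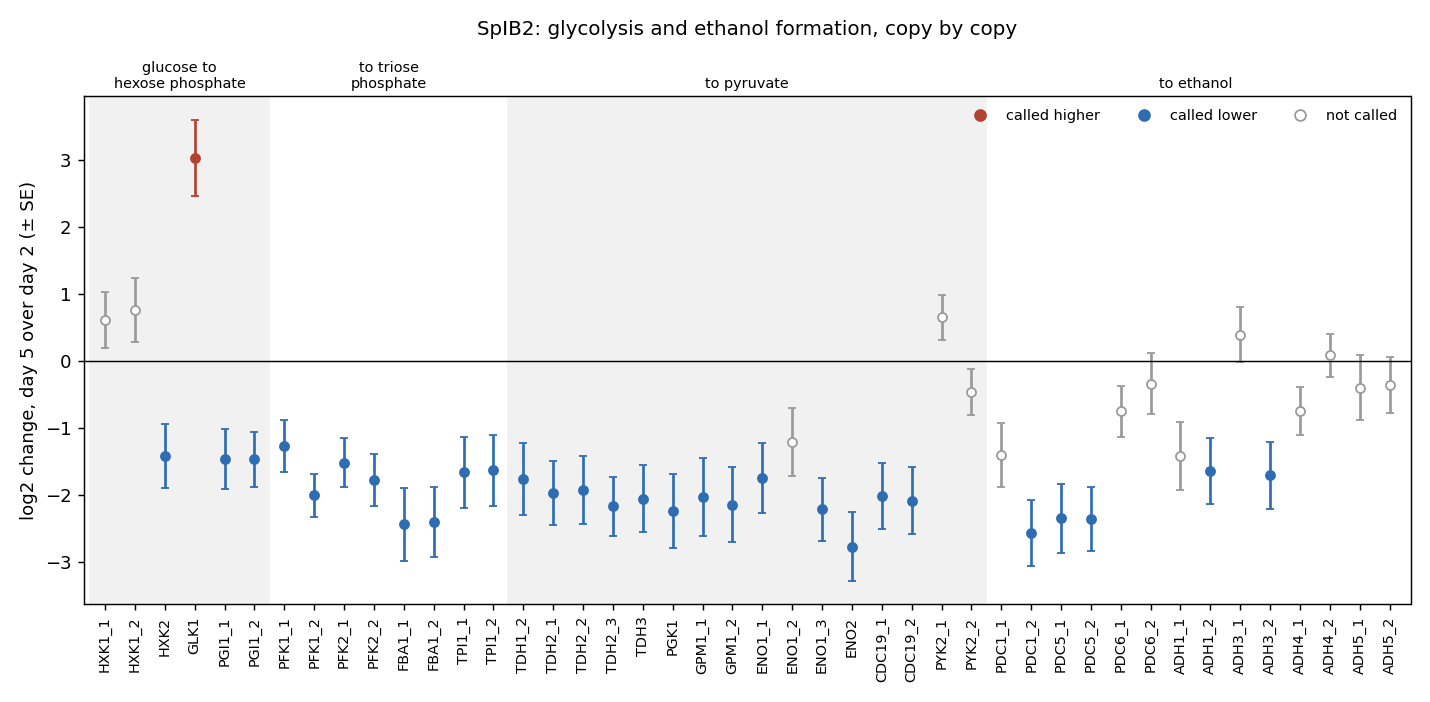
Log2 change of day 5 over day 2 with its standard error for the 44 copies of glycolysis and ethanol formation, ordered along the pathway. Red marks the copy called higher, blue the copies called lower and open grey those not called. GLK1 stands alone above 0 among the called copies, with the other 29 below it.

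Glycerol genes moved in both directions. Of 21 copies, 6 rose and 4 fell (median 0.24, -0.24 with library totals). Named risen copies were GUT2_2 and DAK2, known from glycerol use rather than synthesis. GUT2_2, the mitochondrial glycerol phosphate dehydrogenase, stood at 5724, 1519 and 1605 CPM on day 5, against 83.2, 172 and 522 CPM on day 2 (log2 change 3.51 ± 0.81 SE, edgeR adjusted p = 0.0117). DAK2, a dihydroxyacetone kinase, rose by 2.31 ± 0.47 (edgeR adjusted p = 0.00673). The glycerol phosphatase copies GPP2_1 and GPP2_2, the last step of synthesis, fell, GPP2_1 to 19.6, 66.3 and 41.3 CPM on day 5, against 182, 179 and 406 CPM on day 2 (log2 change -2.59 ± 0.55 SE, edgeR adjusted p = 0.00831). GPP2_2 changed by -2.16 ± 0.46 (edgeR adjusted p = 0.00852), and GPP2_1 by -1.80 without both libraries that stood apart. Without day 5 replicate 1 the changes of GUT2_2 and DAK2 were 2.57 and 1.68, that of GUT2_2 was 4.55 without day 2 replicate 3, and the 6 higher copies numbered 3 and 2 without day 2 replicate 1 or 2. The 4 lower ones numbered 2 without day 2 replicate 1, day 2 replicate 3 or day 5 replicate 3.

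Genes of the TCA cycle and the respiratory chain, which burn ethanol and acetate when oxygen is present, were higher in 24 of 102 copies and lower in 1, with a median of 0.97. HAP4_2, the activator subunit that respiratory genes depend on, stood at 7530.2, 1539 and 1546 CPM on day 5, against 163, 239.7 and 384 CPM on day 2 (log2 change 3.75 ± 0.76 SE, edgeR adjusted p = 0.00661). NDE2_2, an external mitochondrial NADH dehydrogenase, stood at 553, 187 and 189.6 CPM on day 5, against 23.3, 47.9 and 31 CPM on day 2 (log2 change 3.18 ± 0.57 SE, edgeR adjusted p = 0.00419). QCR6_2, a subunit of complex III and among the 10 copies with most reads on day 5, stood at 17169.5, 2737 and 4565 CPM on day 5, against 560.0, 796 and 1534 CPM on day 2 (log2 change 3.08 ± 0.77 SE, edgeR adjusted p = 0.0155). In all 3 day 5 replicate 1 was far above the other day 5 libraries, and without it the changes were 2.52, 2.43 and 1.89. The QCR6_2 call ended without day 2 replicate 1 or 2 (edgeR adjusted p = 0.066 and 0.0551). CYC1_1, a cytochrome c copy, stood at 2398, 576 and 1143 CPM on day 5, against 40.7, 46.5 and 458 CPM on day 2 (log2 change 2.92 ± 0.93 SE, edgeR adjusted p = 0.0397). Its day 2 replicate 3 lay far above the other day 2 libraries; without it the change was 4.99, and the call ended without day 2 replicate 1 or 2 or day 5 replicate 1 or 3 (edgeR adjusted p = 0.107, 0.0984, 0.172 and 0.0615). The 24 higher copies numbered 10 and 11 without day 2 replicate 1 or 2, 39 without both libraries that stood apart and 13 with library totals.

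Mitochondrial ribosomal proteins, which make the mitochondrially encoded respiratory subunits, rose in 36 of 136 copies and fell in 0 in the edgeR test, with a median of 0.64. At an unadjusted p under 0.05, 53 were higher and 0 lower. DESeq2, which called more copies in all, called 57 higher and 0 lower, and limma voom 34 higher and 0 lower. MRPL28_2 stood at 216, 108 and 185 CPM on day 5, against 28.5, 36.1 and 25.9 CPM on day 2 (log2 change 2.49 ± 0.42 SE, edgeR adjusted p = 0.00347), and MRPL16_2 at 68.2, 52.5 and 73.7 CPM on day 5, against 18.4, 21.2 and 19.7 CPM on day 2 (log2 change 1.71 ± 0.32 SE, edgeR adjusted p = 0.00504). Both were apart between the days. IMG1 and RSM28_2, of the large and the small subunit, rose by 2.78 ± 0.52 and 1.73 ± 0.36 (edgeR adjusted p = 0.00509 and 0.00781), and IMG1 by 2.04 without both libraries that stood apart. Summed over copies, MRPL16 and RSM28 did not pass (0.73 ± 0.32 and 0.69 ± 0.40, edgeR adjusted p = 0.104 and 0.213). Without TMM scaling, the summed share of reads did not separate the days, at 0.437%, 0.733% and 0.981% in the day 5 libraries and 0.698%, 0.491% and 0.478% in the day 2 libraries. Day 5 replicate 1, the lowest of these, also had the lowest TMM factor, 0.605, so the overlap need not hold on the TMM scale. The higher copies numbered 14, 11, 17 and 15 without day 2 replicate 1, 2 or 3 or day 5 replicate 3, 45 without both libraries that stood apart and 4 with library totals.

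Gluconeogenesis, the glyoxylate cycle and acetate use, which build sugar from ethanol and acetate, had 29 of 61 copies higher and 7 lower, with a median of 1.25. The summed share of reads of this list, without TMM scaling, did not separate the days. It was 0.894%, 0.562% and 0.57% in the day 5 libraries and 0.487%, 0.659% and 1.2% in the day 2 libraries. The activators ADR1_2 and CAT8_1 stood at 506, 83 and 75.2 CPM on day 5, against 8.62, 13.5 and 14.4 CPM on day 2, and at 452, 144 and 94.1 CPM on day 5, against 12.3, 19 and 7.88 CPM on day 2, with changes of 4.18 ± 0.75 and 4.14 ± 0.65 (edgeR adjusted p = 0.00419 and 0.00266). ADY2, an acetate permease, stood at 102, 61.6 and 87.3 CPM on day 5, against 2.08, 7.63 and 6.93 CPM on day 2 (log2 change 3.91 ± 0.49 SE, edgeR adjusted p = 0.00103). PCK1_1, phosphoenolpyruvate carboxykinase, stood at 103, 19.8 and 9.74 CPM on day 5, against 3.27, 3.29 and 3.4 CPM on day 2 (log2 change 3.71 ± 0.74 SE, edgeR adjusted p = 0.00628). ADY2 was similar in its 3 day 5 libraries, whereas day 5 replicate 1 was well above the other 2 for ADR1_2, CAT8_1 and PCK1_1; without it their changes were 2.66, 3.14 and 2.10. ACS2_1, given above, was among the 7 lower copies. The 29 higher copies numbered 18 without day 2 replicate 1, 19 with library totals and 34 without both libraries that stood apart, and the 7 lower ones 4 without day 2 replicate 3, day 5 replicate 2 or day 5 replicate 3.

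Peroxisomes, where yeast oxidises fatty acids, had 9 of 54 copies higher, near the 14.2% over all copies, and 3 lower. The beta-oxidation enzymes FOX2_1 and POT1_1 stood at 111, 107 and 159.6 CPM on day 5, against 28.4, 23 and 17.3 CPM on day 2, and at 145, 114 and 96.1 CPM on day 5, against 21, 24.8 and 25.4 CPM on day 2, with changes of 2.46 ± 0.38 and 2.32 ± 0.36 (edgeR adjusted p = 0.00256 and 0.00249). SPS19_1, a dienoyl-CoA reductase, rose by 2.65 ± 0.43 and PEX3_2, which recruits peroxisomal membrane proteins, by 2.67 ± 0.51 (edgeR adjusted p = 0.00285 and 0.00548). FOX2_1 and POT1_1 were apart between the days. The peroxisomal adenine nucleotide carrier ANT1_2 fell (log2 change -2.42 ± 0.44 SE, edgeR adjusted p = 0.00434), with a change of -1.75 without both libraries that stood apart. The change of PEX3_2 without day 5 replicate 1 was 2.06.

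Ergosterol synthesis, the oxygen-dependent pathway to the main yeast sterol, had 28 of 68 copies lower and 1 higher, with a median of -1.18. ERG6_1, the sterol methyltransferase, stood at 57.2, 61.4 and 55.7 CPM on day 5, against 332, 486 and 945 CPM on day 2 (log2 change -3.34 ± 0.53 SE, edgeR adjusted p = 0.00271). ERG3_2, the C-5 desaturase, stood at 42.6, 109 and 58.3 CPM on day 5, against 470.4, 723 and 705 CPM on day 2 (log2 change -3.18 ± 0.53 SE, edgeR adjusted p = 0.00339). ERG20_1, the farnesyl diphosphate synthase, stood at 39.4, 116 and 90.0 CPM on day 5, against 397, 517 and 826 CPM on day 2 (log2 change -2.82 ± 0.55 SE, edgeR adjusted p = 0.00587). No day 5 library reached a day 2 library in these 3, and the list took 1.7%, 1.33% and 0.97% of the day 5 reads, against 3.67%, 3.98% and 7.5% of the day 2 reads. CYB5_1, cytochrome b5, which passes electrons to sterol and lipid enzymes, changed by -2.84 ± 0.53 (edgeR adjusted p = 0.00509). The copy that rose was SUT1_2, a transcription factor of sterol uptake, at 166, 75.4 and 106 CPM on day 5, against 5.94, 7.33 and 17.4 CPM on day 2 (log2 change 3.50 ± 0.51 SE, edgeR adjusted p = 0.00189), with a change of 4.13 without day 2 replicate 3. That of ERG20_1 was -2.20 without both libraries that stood apart. The 28 lower copies numbered 17 without day 5 replicate 3, 51 without both libraries that stood apart and 43 with library totals.

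Fatty acid and phospholipid synthesis did not move as 1 block: 14 of 64 copies rose and 7 fell. The risen copies include inositol genes. INO1_2, inositol phosphate synthase, stood at 6631, 2973 and 2318 CPM on day 5, against 92.7, 274 and 146 CPM on day 2 (log2 change 4.54 ± 0.69 SE, edgeR adjusted p = 0.00218). INO4_2, of the activator pair of phospholipid genes, stood at 216, 147 and 182 CPM on day 5, against 11.3, 13 and 21.3 CPM on day 2 (log2 change 3.58 ± 0.44 SE, edgeR adjusted p = 0.000953). The days did not overlap in either, and the inositol carrier ITR1_2 rose by 2.13 ± 0.46 (edgeR adjusted p = 0.0088). OLE1, the fatty acid desaturase, has copies among those with most reads on day 5: OLE1_2 stood at 24373, 7318 and 6059 CPM on day 5, against 2089, 3238 and 3054 CPM on day 2 (log2 change 2.17 ± 0.65 SE, edgeR adjusted p = 0.0316), and OLE1_1 at 25962, 11477 and 9140.0 CPM on day 5, against 4653, 4658 and 5765 CPM on day 2 and did not pass (log2 change 1.63 ± 0.58 SE, edgeR adjusted p = 0.0568). The OLE1_2 call ended without day 2 replicate 1, 2 or 3 or day 5 replicate 1 (edgeR adjusted p = 0.12, 0.0804, 0.0644 and 0.0706). ELO1_1 and PHS1_2, of fatty acid elongation, changed by -2.25 ± 0.52 and -2.15 ± 0.34 (edgeR adjusted p = 0.0117 and 0.0026), and ELO1_1 by -1.46 without both libraries that stood apart. Without day 5 replicate 1 the changes of INO1_2 and OLE1_2 were 3.92 and 1.22; the 14 higher copies numbered 4 and 6 without day 2 replicate 1 or 2 and 9 with library totals, and the 7 lower ones 3 without day 2 replicate 1 and 4 without day 5 replicate 3.

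Nitrogen genes were mostly lower where they moved. In nitrogen catabolite repression and amino acid uptake, 26 of 92 copies fell and 6 rose, led by the GABA and allantoin genes above. The lower copies numbered 17 without day 5 replicate 3 and 32 without both libraries that stood apart, where 10 rose. CPS1_2, a vacuolar carboxypeptidase, and AGP2_1, a plasma membrane regulator of transport, went the other way. CPS1_2 stood at 3315, 1496 and 1694 CPM on day 5, against 165, 257 and 239.8 CPM on day 2 (log2 change 3.30 ± 0.56 SE, edgeR adjusted p = 0.00358). AGP2_1 rose by 3.01 ± 0.48 (edgeR adjusted p = 0.00269), and by 2.40 without day 5 replicate 1. The NADP-dependent glutamate dehydrogenases moved apart: GDH3_1 stood at 1234, 454 and 726 CPM on day 5, against 34.6, 57.9 and 29.2 CPM on day 2 (log2 change 4.31 ± 0.59 SE, edgeR adjusted p = 0.00157), and GDH1_2 at 9.78, 28.8 and 12.5 CPM on day 5, against 57.4, 59.1 and 301 CPM on day 2 (log2 change -3.02 ± 0.69 SE, edgeR adjusted p = 0.0113). GDH3_2 rose by 2.65 ± 0.36 (edgeR adjusted p = 0.00159), and GDH3_1 by 3.62 without both libraries that stood apart. The GDH1_2 change was -1.77 without day 2 replicate 3, its highest library, and -3.64 without day 5 replicate 2, and its call ended without day 5 replicate 1 (edgeR adjusted p = 0.0547).

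Amino acid synthesis had 44 of 131 copies lower and 4 higher, with a median of -0.84. BAT1_2, the mitochondrial branched-chain aminotransferase, stood at 36, 127 and 64.3 CPM on day 5, against 414, 402 and 282 CPM on day 2 (log2 change -2.27 ± 0.53 SE, edgeR adjusted p = 0.0117), with a change of -2.86 without day 5 replicate 2. LYS9_1, of lysine synthesis, and HIS6_1, of histidine synthesis, changed by -2.05 ± 0.45 and -2.01 ± 0.43 (edgeR adjusted p = 0.00926 and 0.00815). The 44 lower copies numbered 19, 19 and 18 without day 2 replicate 1, day 2 replicate 2 or day 5 replicate 3, and 58 without both libraries that stood apart. In sulfate assimilation and methionine, 22 of 68 fell and 6 rose. The methionine synthase MET6_1 stood at 419, 370.3 and 243 CPM on day 5, against 1448, 1798 and 2301 CPM on day 2 (log2 change -2.43 ± 0.51 SE, edgeR adjusted p = 0.00759). MET6_2 and CYS4_2, which makes cystathionine, changed by -2.35 ± 0.45 and -2.34 ± 0.49 (edgeR adjusted p = 0.00537 and 0.00807). Against the list, MUP3_1, a methionine permease of low affinity, rose by 3.18 ± 0.42 and STR3, a cystathionine beta-lyase, by 2.57 ± 0.46 (edgeR adjusted p = 0.00126 and 0.00419). Without both libraries that stood apart, CYS4_2 and STR3 changed by -1.72 and 1.92.

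In purine and pyrimidine synthesis, 11 of 62 copies fell and 1 rose. The purine and cytosine permease FCY2_2 and the uridine permease FUI1_3, carriers rather than enzymes of synthesis, changed by -2.06 ± 0.46 and -2.22 ± 0.41 (edgeR adjusted p = 0.0105 and 0.00449). The lower copies numbered 6 and 2 without day 2 replicate 3 or day 5 replicate 3, 19 without both libraries that stood apart and 22 with library totals.

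In protein synthesis, called copies of cytosolic ribosomal proteins and of translation factors and tRNA synthetases were mostly lower. For ribosome biogenesis and RNA polymerases I and III, the share called lower was near that over all copies. The counts moved with single libraries. Of 249 copies of cytosolic ribosomal proteins, 54 fell and 0 rose in the edgeR test, with a median of -1.26. At an unadjusted p under 0.05, 171 were lower and 0 higher. DESeq2, which called more copies in all, called 174 lower and 0 higher, and limma voom 69 lower and 0 higher. RPL9B_1, of the large subunit, stood at 18.4, 102 and 77.4 CPM on day 5, against 504, 179.8 and 309 CPM on day 2 (log2 change -2.32 ± 0.63 SE, edgeR adjusted p = 0.0222). RPS1B_2, of the small subunit, stood at 45.2, 146 and 135 CPM on day 5, against 543, 288 and 577 CPM on day 2 (log2 change -2.11 ± 0.55 SE, edgeR adjusted p = 0.0191). Day 5 replicate 1 was far below the other day 5 libraries in both, and the days did not overlap. The list took 0.604%, 2.75% and 3.27% of the reads in the day 5 libraries, against 7.77%, 4.65% and 7.63% in the day 2 libraries. RPL9B_2 and RPL11A_3 changed by -2.08 ± 0.57 and -1.95 ± 0.59 (edgeR adjusted p = 0.0232 and 0.0329), and RPL9B_2 by -2.71 without day 5 replicate 2. All 4 calls ended without day 2 replicate 1 (edgeR adjusted p = 0.0704 for RPL9B_1, 0.0547 for RPS1B_2, 0.0547 for RPL9B_2 and 0.096 for RPL11A_3). Without day 5 replicate 3 those of RPL9B_1, RPL9B_2 and RPL11A_3 ended too (edgeR adjusted p = 0.0534, 0.0616 and 0.0508), and without day 2 replicate 3 those of RPL9B_2 and RPL11A_3 (edgeR adjusted p = 0.0507 and 0.0656). The 54 lower copies numbered 8, 6, 25, 18 and 29 without day 2 replicate 1, day 2 replicate 3, or day 5 replicate 1, 2 or 3, 71 without both libraries that stood apart and 92 with library totals.

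Ribosome biogenesis had 27 of 221 copies lower and 4 higher, near the 10.4% over all copies, with a median of -0.72. Its direction depended on the libraries that stood apart: without them 27 copies rose and 13 fell, with a median of -0.13. The lower copies numbered 15, 1, 9, 41 and 1 without day 2 replicate 1, day 2 replicate 3, or day 5 replicate 1, 2 or 3, and the 4 higher ones 2 without day 2 replicate 1 or 2 and 7 without day 2 replicate 3. DBP6_1, a helicase of large subunit assembly, stood at 2.59, 4.6 and 4.09 CPM on day 5, against 12.9, 13.3 and 16.2 CPM on day 2 (log2 change -1.88 ± 0.36 SE, edgeR adjusted p = 0.00521). RPF1_2, of large subunit assembly as well, stood at 182, 316 and 184 CPM on day 5, against 14.7, 12.6 and 38.4 CPM on day 2 (log2 change 3.37 ± 0.54 SE, edgeR adjusted p = 0.0028). These 2 copies of 1 process moved in opposite directions, neither with overlap. RRP9_2, of the U3 particle, rose by 2.01 ± 0.36 (edgeR adjusted p = 0.00434), and UTP6_2 fell (log2 change -1.90 ± 0.49 SE, edgeR adjusted p = 0.0186), a call that ended without day 2 replicate 1, day 2 replicate 3 or day 5 replicate 3 (edgeR adjusted p = 0.057, 0.0583 and 0.055). The change of RPF1_2 was 4.05 without day 2 replicate 3.

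RNA polymerases I and III, which make ribosomal and transfer RNA, had 8 of 70 copies lower, near the 10.4% over all copies, and 5 higher. RRN7_1, of the polymerase I core factor, changed by -2.39 ± 0.57 (edgeR adjusted p = 0.0134), and RPC10_2, a subunit shared by the polymerases, rose by 1.44 ± 0.32 (edgeR adjusted p = 0.00931, and 0.0863 with library totals, where the call ended). Summed over copies, RPC10 overlapped between the days and did not pass (log2 change 0.35 ± 0.36 SE, edgeR adjusted p = 0.482). The lower copies numbered 4, 2, 4, 14 and 3 without day 2 replicate 1, day 2 replicate 3, or day 5 replicate 1, 2 or 3, and the higher ones 2, 1, 2 and 3 without day 2 replicate 1, 2 or 3 or day 5 replicate 2. RRN7_1 changed by -1.48 without both libraries that stood apart. Translation factors and tRNA synthetases had 34 of 106 lower and 4 higher, with a median of -0.97. ANB1_2, the low-oxygen form of factor eIF5A, stood at 8.34, 12.1 and 19.5 CPM on day 5, against 107, 78.8 and 109.6 CPM on day 2 (log2 change -2.88 ± 0.41 SE, edgeR adjusted p = 0.0017). The lysyl-tRNA synthetase KRS1_1 and the methionyl-tRNA synthetase MES1_1 changed by -2.55 ± 0.57 and -2.23 ± 0.45 (edgeR adjusted p = 0.0103 and 0.0069), and KRS1_1 by -1.95 without day 2 replicate 3. MES1_1 changed by -1.54 without both libraries that stood apart. HEF3, the second gene for elongation factor 3, went the other way. HEF3_3 stood at 282, 231 and 141 CPM on day 5, against 10.6, 17.1 and 9.78 CPM on day 2 (log2 change 4.13 ± 0.48 SE, edgeR adjusted p = 0.00085), and HEF3_1 rose by 4.36 ± 0.50 (edgeR adjusted p = 0.00085). The 34 lower copies numbered 16, 17 and 16 without day 2 replicate 2, day 2 replicate 3 or day 5 replicate 3.

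Autophagy and the vacuolar proteases, which recycle cell contents, had 30 of 84 copies higher and 1 lower, with a median of 0.76. Of the named copies, 3 are receptors for selective autophagy. ATG32_2, the receptor for mitochondria, stood at 2309, 647 and 659.7 CPM on day 5, against 43, 67.6 and 61.1 CPM on day 2 (log2 change 4.40 ± 0.66 SE, edgeR adjusted p = 0.00218). ATG39_2, the receptor for the nuclear envelope, stood at 373, 232 and 184 CPM on day 5, against 18, 24.8 and 28.3 CPM on day 2 (log2 change 3.47 ± 0.47 SE, edgeR adjusted p = 0.00148). ATG36_2, the receptor for peroxisomes, rose by 3.50 ± 0.49 (edgeR adjusted p = 0.00164). PRB1_1, the vacuolar proteinase B and among the 10 copies with most reads on day 5, stood at 16606, 6179 and 4241 CPM on day 5, against 600.1, 1380.2 and 886 CPM on day 2 (log2 change 3.24 ± 0.68 SE, edgeR adjusted p = 0.00766). None of these overlapped between the days. Without day 5 replicate 1 the changes of ATG32_2, ATG36_2 and PRB1_1 were 3.47, 2.88 and 2.41. The aminopeptidase LAP3_1 fell (log2 change -1.74 ± 0.40 SE, edgeR adjusted p = 0.0111). The 30 higher copies numbered 13, 16 and 19 without day 2 replicate 1, day 2 replicate 3 or day 5 replicate 1, 27 without both libraries that stood apart, where 6 fell, and 15 with library totals.

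Heat shock proteins and chaperones had 14 of 85 copies higher and 3 lower, near the 14.2% over all copies, with a median of 0.59. The higher copies numbered 0, 3, 25, 8 and 5 without day 2 replicate 1, day 2 replicate 2, day 2 replicate 3, day 5 replicate 1 or day 5 replicate 2, 39 without both libraries that stood apart and 4 with library totals. The 3 lower ones numbered 0 without day 2 replicate 1 or 2 and 1 without day 2 replicate 3, day 5 replicate 1 or day 5 replicate 3. The small heat shock protein HSP42_2 stood at 3755, 2261 and 1832 CPM on day 5, against 240.0, 336 and 901 CPM on day 2 (log2 change 2.41 ± 0.63 SE, edgeR adjusted p = 0.0187), with a change of 3.19 without day 2 replicate 3. SSC1_1, the mitochondrial Hsp70, rose by 2.49 ± 0.57 and ERO1_1, the thiol oxidase of the endoplasmic reticulum, by 2.27 ± 0.55 (edgeR adjusted p = 0.0111 and 0.0141), and by 1.87 and 1.68 without day 5 replicate 1. The calls of HSP42_2, SSC1_1 and ERO1_1 ended without day 2 replicate 1 (edgeR adjusted p = 0.0788, 0.054 and 0.0621), and those of HSP42_2 and ERO1_1 without day 2 replicate 2 (edgeR adjusted p = 0.0724 and 0.0559). The proteasome had 6 of 83 higher, a share of 7.23%, below the 14.2% over all copies, and 1 lower (median 0.35, -0.17 with library totals). The higher ones numbered 0, 1, 3, 3 and 3 without day 2 replicate 1, day 2 replicate 2, day 2 replicate 3, day 5 replicate 1 or day 5 replicate 3. RPN4_1, the activator of proteasome genes, rose by 1.93 ± 0.50 (edgeR adjusted p = 0.0186), a call that ended without day 2 replicate 1 or 2 (edgeR adjusted p = 0.0818 and 0.0649).

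Antioxidant defence had 11 of 61 copies higher and 6 lower, and its median of 0.20 was -0.29 with library totals and -0.03 without both libraries that stood apart. Of this list, the higher copies numbered 4, 7 and 7 without day 2 replicate 1, day 5 replicate 2 or day 5 replicate 3, and 6 with library totals. The lower ones numbered 3 without day 2 replicate 1 and 3 without day 5 replicate 2. SRX1_2, the sulfiredoxin that repairs peroxiredoxins, stood at 204, 55.2 and 55.3 CPM on day 5, against 2.82, 6.88 and 3.8 CPM on day 2 (log2 change 4.53 ± 0.62 SE, edgeR adjusted p = 0.00156). The oxidative stress regulator SKN7_1 and the glutathione synthesis gene GSH1_1 rose by 2.60 ± 0.53 and 2.54 ± 0.49 (edgeR adjusted p = 0.00675 and 0.00542). The changes of SRX1_2 and SKN7_1 without day 5 replicate 1 were 3.58 and 1.81. The peroxiredoxin TSA1_2 fell (log2 change -1.78 ± 0.54 SE, edgeR adjusted p = 0.0323), with a call that held without day 2 replicate 1 and ended without any other library (edgeR adjusted p = 0.0517 to 0.0954) and a change of -1.17 without day 2 replicate 3.

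Among genes of dividing cells, 26 of 125 copies fell and 8 rose, with a median of -0.45. CLN3_1, the cyclin that starts the cell cycle, stood at 15, 16.5 and 13.4 CPM on day 5, against 59.4, 73.5 and 112 CPM on day 2 (log2 change -2.45 ± 0.37 SE, edgeR adjusted p = 0.00213). The mitotic kinase copies CDC5_3 and CDC5_2 changed by -2.22 ± 0.36 and -1.95 ± 0.39 (edgeR adjusted p = 0.00315 and 0.00628). Against the list, MCM3_1, a subunit of the replicative helicase, stood at 1331, 124 and 189 CPM on day 5, against 28.7, 37.7 and 60.2 CPM on day 2 (log2 change 3.70 ± 0.85 SE, edgeR adjusted p = 0.0113), with day 5 replicate 1 far above the other 2 and a change of 1.86 without it. The higher copies numbered 5, 1 and 2 without day 2 replicate 1, 2 or 3 and 5 without either of day 5 replicates 1 and 2. The lower copies numbered 10, 12, 17 and 9 without day 2 replicate 1, day 2 replicate 2, day 5 replicate 2 or day 5 replicate 3, and 36 without both libraries that stood apart.

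In flocculation and the cell wall, 19 of 75 copies rose and 6 fell (median 0.44, -0.04 with library totals). Both copies of CHS1, a chitin synthase of cell wall repair, rose: CHS1_1 stood at 1193, 923 and 448 CPM on day 5, against 34.6, 57.3 and 83.8 CPM on day 2 (log2 change 3.87 ± 0.59 SE, edgeR adjusted p = 0.00225), and CHS1_2 changed by 3.25 ± 0.46 (edgeR adjusted p = 0.00172). KRE1, of beta-glucan assembly, rose by 3.02 ± 0.54 and the phospholipase PLB2_2 changed by -1.72 ± 0.37 (edgeR adjusted p = 0.00419 and 0.00871). The days did not overlap in CHS1_1, and KRE1 changed by 2.40 without both libraries that stood apart. The higher copies numbered 8 and 12 without day 2 replicate 1 or 3 and 9 with library totals, and the lower ones 3, 3, 3 and 2 without day 2 replicate 1, day 2 replicate 2, day 5 replicate 2 or day 5 replicate 3. In sporulation and mating, 6 of 67 rose, a share of 8.96%, below the 14.2% over all copies, and 2 fell. These numbered 8 and 9 without both libraries that stood apart, and 4 fell without day 5 replicate 2. Beside IME2_2, the recombination endonuclease SPO11_3 stood at 121, 104 and 38.8 CPM on day 5, against 2.23, 5.98 and 3.4 CPM on day 2 (log2 change 4.49 ± 0.54 SE, edgeR adjusted p = 0.000911).

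Some symbols had copies that moved apart. Of 3897 symbols with exactly 2 tested copies, 237 had both higher and 171 both lower. In 571 only 1 copy was called, as higher, and in 477 only 1, as lower, which does not show that the copies differ, since that difference was not tested. In 9 the copies were called in opposite directions. IME2_1 stood at 5.47, 1.34 and 3.9 CPM on day 5, against 7.43, 11.2 and 14.1 CPM on day 2 (log2 change -1.65 ± 0.48 SE, edgeR adjusted p = 0.0283), the reverse of IME2_2. SUP45_3, of the translation release factor, rose by 2.11 ± 0.36 while SUP45_2 changed by -1.70 ± 0.51 (edgeR adjusted p = 0.00366 and 0.0329). BAT2_2, the cytosolic branched-chain aminotransferase, rose by 2.16 ± 0.37 while BAT2_1 changed by -1.65 ± 0.52 (edgeR adjusted p = 0.00389 and 0.0396). The lower call of each of these symbols depended on single libraries. That of IME2_1 ended without day 2 replicate 2 or 3 or day 5 replicate 2 or 3 (edgeR adjusted p = 0.0609, 0.0876, 0.0734 and 0.062). That of SUP45_2 ended without day 2 replicate 1 or 3 or day 5 replicate 3 (edgeR adjusted p = 0.0728, 0.084 and 0.0851), and its change was -2.36 without day 5 replicate 2. That of BAT2_1 ended without day 2 replicate 1 or 2 or day 5 replicate 2 or 3 (edgeR adjusted p = 0.155, 0.0737, 0.113 and 0.0922) and with median-ratio size factors (edgeR adjusted p = 0.0502), and its change was -2.31 without both libraries that stood apart.

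The day effect in SpIB2 was set against that in SpIB1 in 1 fit of all 12 libraries, where the difference of the day effects, SpIB2 minus SpIB1, was tested directly. This fit shares 1 estimate of spread per copy between the strains. The biological coefficient of variation, a measure of spread between libraries, was 0.191 in SpIB1 and 0.369 in SpIB2. A copy given below as not passing in SpIB1 may therefore still have changed there. Of 10659 copies, the difference was positive in 1554 (14.6%) and negative in 1265 (11.9%) at an adjusted p under 0.05. Without SpIB1 day 2 replicate 3 these were 1013 and 602, and without SpIB1 day 5 replicate 2 they were 998 and 716. The negative ones numbered 712, 760 and 759 without SpIB1 day 2 replicate 1, SpIB1 day 2 replicate 2 or SpIB1 day 5 replicate 1. With library totals they were 692 and 2857, the median difference being -0.78 in place of -0.07 and 19.5% of the calls positive in place of 55.1%.

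The 6 named copies with the most positive difference rose in SpIB2 and did not pass in SpIB1. On the scale of the 12 libraries, BOP2_2 stood at 4252, 1631 and 1124 CPM on day 5, against 10.5, 23.9 and 35.1 CPM on day 2 in SpIB2, and at 14.9, 17.9 and 32.4 CPM on day 5, against 37.4, 31.2 and 34 CPM on day 2 in SpIB1 (difference 7.31 ± 0.82 SE, edgeR adjusted p = 0.000224). SPG4_1 stood at 1218, 1770.5 and 1271 CPM on day 5, against 10.1, 4.01 and 5.85 CPM on day 2 in SpIB2, and at 91.4, 169 and 167 CPM on day 5, against 97, 71.3 and 99 CPM on day 2 in SpIB1 (difference 7.05 ± 0.59 SE, edgeR adjusted p = 6.60e-05). HXT5_2 stood at 4178, 1240.3 and 767 CPM on day 5, against 5.41, 9.25 and 4.46 CPM on day 2 in SpIB2, and at 61.3, 88.1 and 127 CPM on day 5, against 42.7, 25.8 and 38.8 CPM on day 2 in SpIB1 (difference 6.97 ± 0.85 SE, edgeR adjusted p = 0.00034). SpIB2 on day 5 was the highest group for all 3, and SpIB2 on day 2 was below both SpIB1 groups for SPG4_1 and HXT5_2. The differences for HSP30, SPG1_1 and IRA2_1 were 6.62 ± 0.78 SE, edgeR adjusted p = 0.000272, then 5.61 ± 0.82 SE, edgeR adjusted p = 0.000955, then 5.52 ± 0.64 SE, edgeR adjusted p = 0.000246. The SpIB1 changes of these 6 copies ran from -0.65 for BOP2_2 to 1.36 for HXT5_2, and none passed the test (edgeR adjusted p = 0.197 for HXT5_2 to 0.969 for HSP30).

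In the other direction, DAL7_1 stood at 63.9, 293 and 131 CPM on day 5, against 1541, 805 and 2351 CPM on day 2 in SpIB2, and at 1949.7, 1055 and 771 CPM on day 5, against 496, 756 and 624 CPM on day 2 in SpIB1 (difference -4.27 ± 0.80 SE, edgeR adjusted p = 0.00346). The histone HTB2_1 stood at 22, 47.2 and 49.3 CPM on day 5, against 251, 99.3 and 80.6 CPM on day 2 in SpIB2, and at 68.4, 119 and 85.2 CPM on day 5, against 23.1, 35.3 and 28.7 CPM on day 2 in SpIB1 (difference -3.50 ± 0.61 SE, edgeR adjusted p = 0.0024). RPL9B_1 stood at 22, 115 and 87.4 CPM on day 5, against 612, 209.8 and 350.0 CPM on day 2 in SpIB2, and at 278, 197 and 177 CPM on day 5, against 108, 120.2 and 106 CPM on day 2 in SpIB1 (difference -3.35 ± 0.72 SE, edgeR adjusted p = 0.00691). In these 3 every day 5 library was lower than those of day 2 in SpIB2 and higher than those of day 2 in SpIB1. The differences for RPL9B_2, RPS1B_2 and RPL11A_3 were -3.23 ± 0.67 SE, edgeR adjusted p = 0.00603, then -3.00 ± 0.59 SE, edgeR adjusted p = 0.00434, then -2.87 ± 0.67 SE, edgeR adjusted p = 0.00996. The SpIB1 changes of these 6 copies ran from 0.85 for RPS1B_2 to 1.65 for HTB2_1, and none passed the test (edgeR adjusted p = 0.0501 for HTB2_1 to 0.352 for DAL7_1). The SpIB2 call of HTB2_1 ended without day 2 replicate 1 or day 5 replicate 1 (edgeR adjusted p = 0.097 and 0.0504).

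The lists below are to be read against the 14.6% positive and 11.9% negative over all copies. The difference of the day effects was negative in 219 of 247 cytosolic ribosomal protein copies. The medians of the list were -1.29 in SpIB2 and 0.73 in SpIB1, where 1 copy was called higher. In the general stress response it was positive in 49 of 81 (medians 1.82 in SpIB2 and -0.55 in SpIB1). In glycolysis and ethanol formation it was negative in 22 of 44 and positive in 1 (medians -1.69 in SpIB2 and -0.20 in SpIB1). Ergosterol synthesis was lower on day 5 in both strains: the medians were -1.21 in SpIB2 and -1.54 in SpIB1, where 29 copies were called lower, and the difference was positive in 10 of 68, a share at that of all copies. Anaerobic and low-oxygen genes, with medians of -0.27 in SpIB2 and -1.56 in SpIB1, had a positive difference in 24 of 64 and a negative one in 1.

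**Figure D5:**
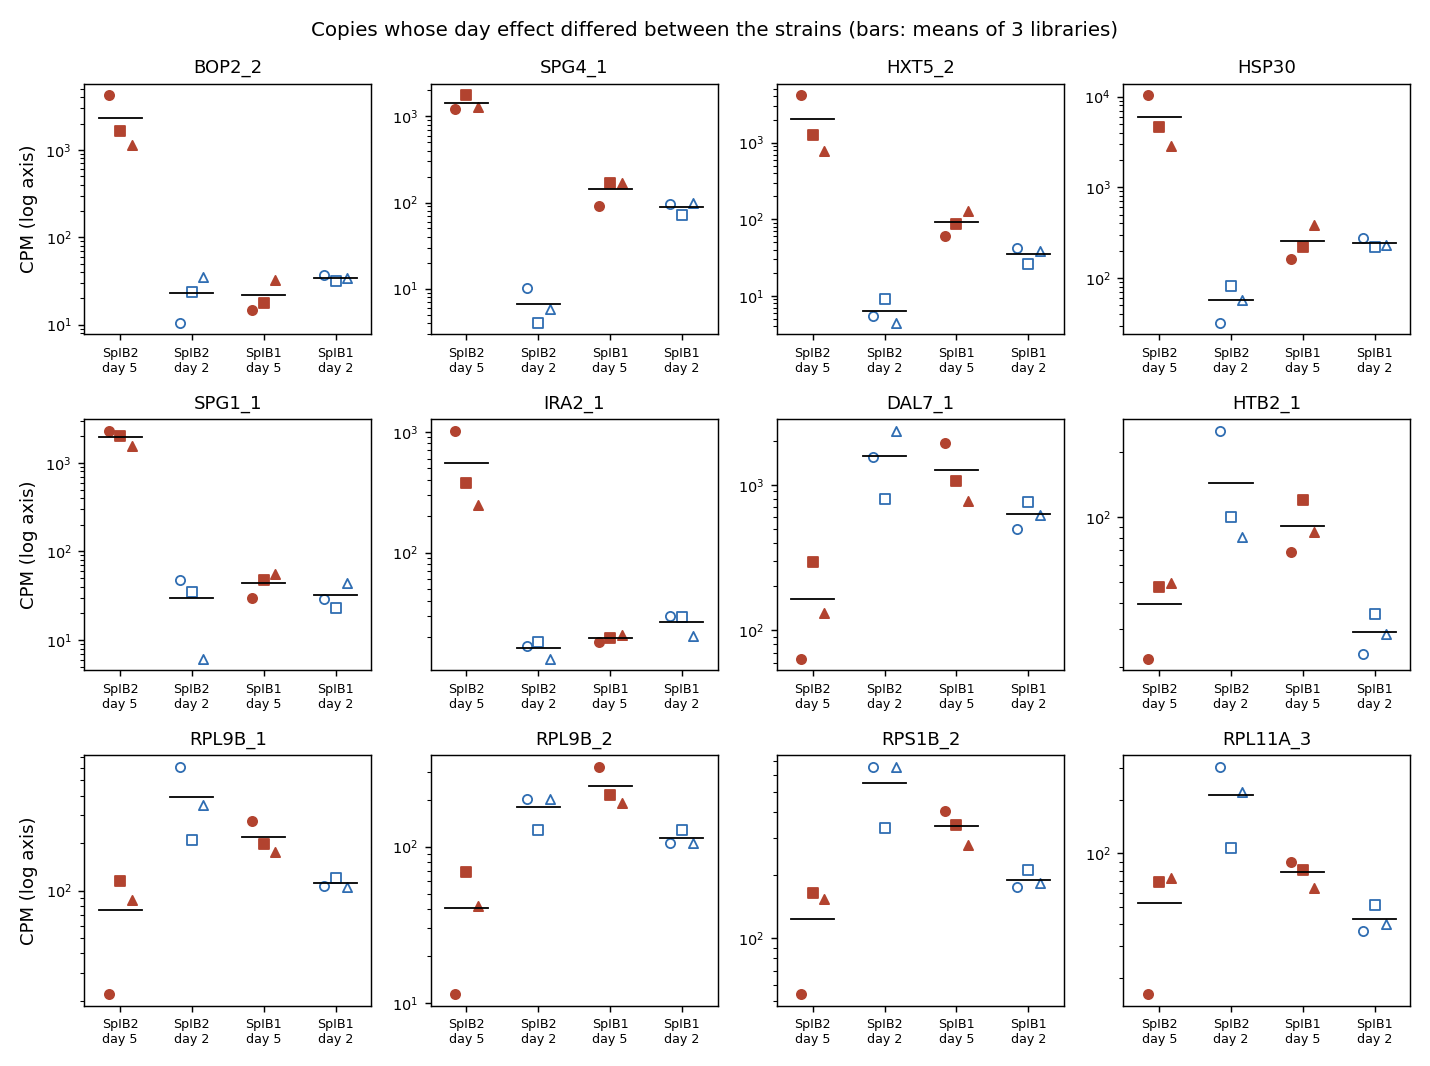
Levels in every library of 12 named copies, the 6 with the most positive and the 6 with the most negative difference in day effect between the strains, in CPM on a log axis scaled over the 12 libraries. Filled symbols are day 5, open symbols day 2, shapes are replicates and bars are means of 3 libraries. In the first 6 copies SpIB2 on day 5 stands above the other 3 groups, and in the last 6 it stands below SpIB2 on day 2 while SpIB1 on day 5 stands above SpIB1 on day 2.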

How the data were processed

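The authors deposited raw counts, 1 whole number per gene copy and library, in 1 table per library. Per the submitters' processing notes, the tools were edgeR 3.34.0, HTSeq 0.11.1, STAR 2.7.3a and Trimmomatic 0.38, with no roles given. Not given in the sources used here are the genome build, the use of strand and how multimapping reads were counted. In the SpIB2 tables, 13 rows held a cell that is not a number and were dropped, and 754 copies did not pass edgeR's filter on low counts. The 6 SpIB2 libraries were fitted alone with edgeR 4.0.16 in R 4.3.3 (TMM scaling, robust quasi-likelihood test, 4 residual degrees of freedom, biological coefficient of variation 0.369), with Benjamini-Hochberg adjustment over all tested copies. The difference between strains was the interaction term of the same fit on 12 libraries. A count of 3 reads corresponds to 0.408 to 0.863 CPM in a SpIB2 library, and counting error is only part of the spread. The procedure was tested on simulated data.

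Copies were named by a fixed rule: up to 15 largest changes each way among called copies with a symbol, a mean of at least 10 CPM and no overlap; up to 4 called members per list and up to 2 against it; the maltose list; copies called in opposite directions; the 10 copies with most reads on each day; and up to 6 copies each way for the strain difference. The members and lists were chosen with earlier results of these data known. RPP1 and MRP8 were left out of the ribosomal protein lists, since they are not ribosomal proteins. Alternatives were median-ratio size factors, library totals, no filter, a filter at a mean count of 50, DESeq2 1.42.0 with a local dispersion fit, limma voom 3.58.1, a replicate block, all 12 libraries in 1 fit, copies summed per symbol, the unreadable cells filled where possible, leaving out each library, and leaving out both libraries that stood apart. Promoter and protein sequences were not used here.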

Additional observations from a re-analysis of the deposited data

Results flagged for a closer look

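Set out here are 12 of the named copies whose day effect differed between SpIB2 and SpIB1, the 6 most positive and the 6 most negative, by the interaction term of the 12-library edgeR fit (log2, SpIB2 minus SpIB1, adjusted p under 0.05). The difference was positive for BOP2_2 (7.31), SPG4_1 (7.05), HXT5_2 (6.97), HSP30 (6.62), SPG1_1 (5.61) and IRA2_1 (5.52), whose SpIB2 libraries were higher on day 5. It was negative for DAL7_1 (-4.27), the histone HTB2_1 (-3.50) and the ribosomal protein copies RPL9B_1 (-3.35), RPL9B_2 (-3.23), RPS1B_2 (-3.00) and RPL11A_3 (-2.87), whose SpIB2 libraries were lower on day 5. All 12 kept their sign and passed the threshold in each of the alternatives run. They were named because their difference was large, so their size is a description. No group held the 4 samples needed to look for a single sample far from the others.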

How the results depend on the processing

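Against 1495 higher and 1101 lower copies, library totals gave 745 higher, DESeq2 2327 and 2029, all 12 libraries in 1 fit 2325 and 2508, and copies summed per symbol 899 and 669. Leaving out 1 library gave 759 to 1308 higher and 529 to 869 lower. The replicate block gave 976 and 654. Same-numbered libraries correlated at -0.41, -0.33 and -0.04 in their deviations from the group means. With 3 libraries a day, 1 on each day standing apart, these values cannot settle whether the numbers pair the libraries. The labels do not tie the numbers of the 2 days together, so the block was kept as an alternative. The strain difference, 1554 positive and 1265 negative, gave 692 and 2857 with library totals and 998 to 1770 and 602 to 1494 with 1 library left out. The sign changed in 8 values of single copies. MAL31_1 was -0.43 to 0.056 with 1 library left out, above 0 without day 2 replicate 2 or day 5 replicate 3, and 0.12 summed per symbol, and MAL31_2 was -0.014 with library totals. Summed per symbol, IMA1_2 was -0.31, IME2_1 3.60, BAT2_2 -0.63 and SUP45_3 -0.54, since a sum holds the other copies of the symbol. The causes were otherwise not tested. For 167 copies, 2686 values kept their direction and side of the threshold, 121 no longer passed and 21 newly passed; of the list counts, 700 stayed within 1.5 times and 292 did not. When copies were summed per symbol, 17 of the 167 no longer passed. They include MRPL16_2, RSM28_2, RPC10_2, HIS6_1, ELO1_1, PGM1_2 and TSA1_2 (edgeR adjusted p = 0.0676 for ELO1 to 0.482 for RPC10). A change named for 1 copy is therefore not the change of its gene. With 4 residual degrees of freedom and 3 libraries a day, copies that did not pass may still differ.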

Other observations

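Anaerobic and low-oxygen genes had 3 of 64 copies higher on day 5 (4.69%, against 14.2% over all copies) and 11 lower (17.2%, against 10.4%). The median of the list was -0.23. Beside ANB1_2 in that list, HEM13_1, the coproporphyrinogen oxidase of heme synthesis, stood at 39.4, 36.1 and 47.7 CPM on day 5, against 331, 375 and 60.5 CPM on day 2 (log2 change -2.64 ± 0.61 SE, edgeR adjusted p = 0.0116). AAC3_2, the ADP/ATP carrier of low oxygen, stood at 1.44, 0.959 and 4.68 CPM on day 5, against 23, 15.3 and 11.8 CPM on day 2 (log2 change -2.78 ± 0.53 SE, edgeR adjusted p = 0.00533), with a change of -3.81 without day 5 replicate 3. The days did not overlap in either. OSM1_1, a fumarate reductase, rose by 2.09 ± 0.38 (edgeR adjusted p = 0.00444). The lower copies numbered 7 without day 2 replicate 2, 27 without both libraries that stood apart and 17 with library totals.

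Aroma esters and the Ehrlich pathway, which give beer its fruity and fusel notes, had 10 of 40 copies lower and 7 higher. Beside ATF2_1, the pyruvate decarboxylase copies PDC5_1 and PDC5_2 changed by -2.35 ± 0.51 and -2.36 ± 0.48 (edgeR adjusted p = 0.00901 and 0.00665). AAD14_1, a putative aryl-alcohol dehydrogenase, rose by 3.47 ± 0.55 (edgeR adjusted p = 0.00266), and by 2.77 without both libraries that stood apart. Without 1 library the higher copies numbered as few as 3 (day 2 replicate 1 or 2) and the lower ones 6 (day 2 replicate 2, day 5 replicate 2 or day 5 replicate 3).

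Phosphate, zinc and thiamine genes had 10 of 84 copies higher and 5 lower, and iron genes 8 of 69 higher and 7 lower, with a median of 0.00. The shares called higher, 11.9% and 11.6%, were below the 14.2% over all copies. PHO8_2, the vacuolar alkaline phosphatase, stood at 1197, 384 and 326 CPM on day 5, against 30.9, 49.8 and 119 CPM on day 2 (log2 change 3.25 ± 0.69 SE, edgeR adjusted p = 0.00832), without overlap. Its change was 3.99 without day 2 replicate 3 and 2.38 without day 5 replicate 1. ZPS1_2, a cell surface protein known from zinc limitation, rose by 2.22 ± 0.33 and FTH1_1, a vacuolar iron transporter, by 2.06 ± 0.40 (edgeR adjusted p = 0.00194 and 0.00581). The thiamine transporter THI7_1 changed by -1.78 ± 0.40 (edgeR adjusted p = 0.0102). The higher copies of the phosphate, zinc and thiamine list numbered 6 and 5 without day 2 replicate 1 or 2, and the lower ones 1 without day 2 replicate 1 or day 5 replicate 3, 2 without day 2 replicate 2 or 3 and 3 without day 5 replicate 2. The higher iron copies numbered 3 without day 2 replicate 1, and the lower ones 4 without day 2 replicate 2, day 5 replicate 1 or day 5 replicate 2, 2 without day 2 replicate 3 and 1 without day 5 replicate 3.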
